A study of Mus musculus with 18 samples.

Results

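Resting CD4 T cells that carried the Gli2 repressor transgene (Gli2R Tg) were compared with resting wild-type (WT) CD4 T cells. The comparison used 6 of the 18 arrays in the series, 3 per group, chosen by their titles. Spleens of C57BL/6 mice, 9 to 15 weeks old, gave the cells, which were purified with magnetic beads and used fresh without stimulation. The remaining arrays held resting cells with the activator transgene (Gli2A Tg) and cells of the 3 genotypes stimulated for 6 h with antibodies against CD3 and CD28, 3 arrays in each group. All groups shared the C57BL/6 background, and no other allele or agent is named in the labels. The promoter that drives the transgenes and the number of founder lines are not given in the sources used here. Nor do they state that replicates are separate animals, and the spread behind each p-value may in part be technical. The WT arrays did not all come from the same mice, as the sex-linked genes given below differed among them.

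Hedgehog signals reach the genome through the zinc finger proteins Gli1, Gli2 and Gli3. Without a Hedgehog ligand, the receptor Ptch1 holds the membrane protein Smo in check, and Gli2 and Gli3 are cut into forms that repress their target genes. With a ligand, Smo is released and full-length Gli proteins activate those targets, among them Ptch1, Gli1 and Hhip. In the thymus and in peripheral T cells the pathway is known to influence differentiation and the response to T cell receptor signals. A repressor form of Gli2 would be used to ask which genes in resting T cells depend on Gli-driven transcription.

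Each level given is the log2 of the array intensity plus 16 after quantile normalization, read from the brightest probe set of a gene, and each difference is the mean of the Gli2R Tg arrays minus the mean of the WT arrays with its standard error (SE). The median deposited intensity lay between 66.7 and 72.3 in the 3 Gli2R Tg arrays and between 66.3 and 74.1 in the 3 WT arrays. The ratio of 3′ to 5′ actin probe sets, a measure of RNA integrity, was 1.31 to 1.47 in the Gli2R Tg arrays and 1.32 to 1.58 in the WT arrays. Over all genes the arrays correlated at 0.973 to 0.980 within Gli2R Tg, 0.978 to 0.980 within WT and 0.972 to 0.977 between the groups. Gli2R Tg replicate 3 stood apart from the other 5 arrays on the second principal component, which held 22.3% of their variance. Xist, the RNA of the inactive X chromosome, was 14.37, 14.32 and 14.42 in the Gli2R Tg arrays, against 5.79, 6.05 and 14.27 in the WT arrays. The Y-linked gene Kdm5d was 4.68, 5.17 and 4.58 in the Gli2R Tg arrays, against 9.01, 9.05 and 4.17 in the WT arrays. WT replicates 1 and 2 thus had a male pattern and the other 4 arrays a female one, and the labels do not give the sex of the mice. The defining markers of CD4 T cells were high in all 6 arrays. Cd4 was 11.25, 11.61 and 11.30 in the Gli2R Tg arrays, against 11.14, 11.06 and 11.11 in the WT arrays, and Cd3e was 13.46, 13.41 and 13.01 in the Gli2R Tg arrays, against 13.06, 13.04 and 12.91 in the WT arrays.

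No gene of the 18193 measured passed an adjusted p under 0.05 in limma (0% called), and the lowest adjusted p was 0.0654, shared by 6 genes. At an unadjusted p under 0.05, limma gave 1869 genes (10.3%), of which 851 (4.68%) were higher and 1018 (5.6%) lower in Gli2R Tg cells. The 3 values of each group did not overlap in 3243 genes (17.8%), 8.67% of all genes being higher and 9.16% lower in this way. By sign alone 52.1% of all genes were higher and 47.9% lower. The median difference over all genes was 0.01, and 446 genes differed by more than 1 on the log2 scale, 174 of them higher and 272 lower. Other settings of the same data called 0 to 212 genes, the highest count with arrays weighted by their quality and 34 without Gli2R Tg replicate 3. The differences described below are therefore given as values and not as changes, unless another comparison is named in which they passed.

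No Hedgehog pathway gene passed the test between Gli2R Tg and WT cells. Of the 21 measured components, 12 were higher and 9 lower in Gli2R Tg cells, and the median difference was 0.10. Without overlap, 1 was higher and 2 were lower, against 8.67% and 9.16% of all genes. An unadjusted p under 0.05 was reached by 1 of the 21, against 10.3% of all genes. The receptor and target Ptch1 was 10.60, 10.26 and 10.34 in the Gli2R Tg arrays, against 10.24, 10.44 and 10.44 in the WT arrays. The groups overlapped, and the difference was 0.02 ± 0.16 (95% interval -0.31 to 0.36, adjusted p = 0.984). All 3 of its probe sets gave a difference of the same sign. In resting Gli2A Tg cells Ptch1 averaged 13.49 ± 0.19 (SD, n = 3), a difference of -3.09 ± 0.16 for Gli2R Tg minus Gli2A Tg (limma, adjusted p = 1.05e-07). Ptch1 therefore separated the Gli2A Tg arrays from both other groups and did not separate Gli2R Tg from WT.

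Among the ligands, Shh, Ihh and Dhh, levels were low. Shh was 4.64, 5.77 and 5.63 in the Gli2R Tg arrays, against 5.54, 5.69 and 5.04 in the WT arrays, and Ihh was 6.27, 5.94 and 6.32 in the Gli2R Tg arrays, against 5.77, 6.20 and 6.21 in the WT arrays. Both overlapped between the groups. The 25th percentile of all gene levels was 5.37, so Shh lay close to it. Dhh was 4.21, 4.35 and 4.30 in the Gli2R Tg arrays, against 5.26, 4.77 and 4.46 in the WT arrays, which put the Gli2R Tg arrays below all WT arrays at levels under that percentile. Its difference was -0.54 ± 0.37 (adjusted p = 0.674).

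Smo, which passes the signal across the membrane, was 7.05, 6.60 and 7.23 in the Gli2R Tg arrays, against 7.51, 7.48 and 7.45 in the WT arrays. The groups did not overlap, and the difference was -0.52 ± 0.26 (adjusted p = 0.534). Cdon, a co-receptor that binds Hedgehog ligands, was the 1 component with an unadjusted p under 0.05. It was 8.90, 8.80 and 8.97 in the Gli2R Tg arrays, against 8.68, 8.49 and 8.34 in the WT arrays, higher by 0.38 ± 0.16 in Gli2R Tg cells without overlap (adjusted p = 0.42). Against resting Gli2A Tg cells Cdon differed by 0.08 ± 0.16 (adjusted p = 0.865). The co-receptors Boc and Gas1 overlapped between the groups, with differences of -0.05 and 0.10. Sufu, the cytoplasmic inhibitor of Gli proteins, differed by 0.19 ± 0.13, and Spop, an adaptor for the degradation of Gli proteins, by -0.10 ± 0.14.

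The transgene itself could not be read. Of the pair of Gli2 probe sets, the brighter was 5.32, 4.23 and 5.42 in the Gli2R Tg arrays, against 4.57, 4.43 and 5.46 in the WT arrays, near or below the 25th percentile of all gene levels. The sources used here do not give how much of the Gli2 sequence the transgene carries. Gli1 was 6.23, 6.19 and 6.85 in the Gli2R Tg arrays, against 5.79, 6.53 and 6.35 in the WT arrays, with overlap and a difference of 0.20 ± 0.31. Gli3 differed by 0.24 ± 0.45. The arrays therefore give no check of the genotype labels from the Gli genes.

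Of the 19 measured genes on a list of textbook Gli targets, most of them known from other tissues, 9 were higher and 10 lower, with a median of -0.03. Without overlap, 2 were higher and 1 lower, against 8.67% and 9.16% of all genes. An unadjusted p under 0.05 was reached by 2 of the 19, against 10.3% of all genes. Ccne1, cyclin E1, was 9.26, 9.06 and 10.21 in the Gli2R Tg arrays, against 10.95, 10.83 and 10.65 in the WT arrays. All Gli2R Tg arrays lay below all WT arrays, with replicate 3 the nearest to WT, and the difference was -1.30 ± 0.40 (adjusted p = 0.257). Bcl2, which protects cells from apoptosis, was 11.43, 11.41 and 11.29 in the Gli2R Tg arrays, against 10.82, 10.84 and 10.43 in the WT arrays, higher by 0.68 ± 0.20 without overlap (adjusted p = 0.246). Bcl2 averaged 11.38 ± 0.08 in resting Gli2R Tg and 11.38 ± 0.32 in resting Gli2A Tg cells (SD, n = 3 each), a difference of -0.00 ± 0.20 (SE). The cyclins Ccnd1 and Ccnd2 differed by -0.21 ± 0.34 and -0.11 ± 0.16, and Hhip by -0.04 ± 0.29. The exact 9 letters GACCACCCA of the Gli binding motif, on either strand, lay in 0.253% of the 32851 promoter windows of 300 bases in RefSeq's GRCm38.p6 annotation. None of the 17 Hedgehog components, 12 Gli targets or 17 of the 24 lowest-p genes with such a window held them, which says only that these letters are not in these windows.

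**Figure D1:**
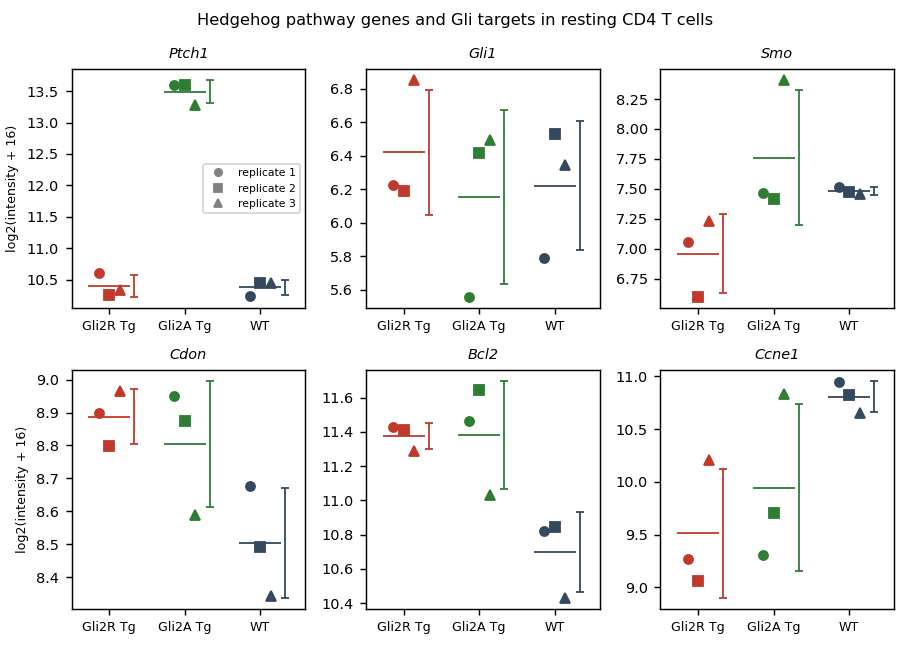
Log2 levels of 6 Hedgehog pathway genes and Gli targets in resting Gli2R Tg, Gli2A Tg and WT arrays, 1 point per array with the group mean as a line and the SD as a bar. Ptch1 averages 13.49 in Gli2A Tg arrays and lies between 10.24 and 10.60 in all Gli2R Tg and WT arrays. Smo, Cdon, Bcl2 and Ccne1 do not overlap between Gli2R Tg and WT, as is so for 17.8% of all genes. The 6 panels are a selection. Without overlap, 1 of the 21 measured pathway components was higher and 2 were lower. Of the 19 measured Gli targets, 2 were higher and 1 was lower in this way.

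The genes with the lowest p-values came from many functions. The 12 lowest on the higher side and the 12 lowest on the lower side had adjusted p-values from 0.0654 to 0.104 and differences of 0.67 to 2.58 in size. They were chosen for a low p, so none of the 24 overlapped between the groups, and this adds nothing to the p-value. Of the 24, 15 also differed between resting Gli2R Tg and resting Gli2A Tg cells at an adjusted p under 0.05, as did 2.4% of all genes. That comparison holds the same 3 Gli2R Tg arrays on which the 24 were chosen, so this count is a description and no independent support.

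On the higher side, Haghl, a relative of the glyoxalase II enzyme, was 9.39, 9.14 and 8.97 in the Gli2R Tg arrays, against 7.38, 7.51 and 8.02 in the WT arrays. This was 2.88-fold higher, 1.53 ± 0.23 on the log2 scale (adjusted p = 0.0654), and 3 of its 4 probe sets had the same sign. Its mean in resting Gli2A Tg cells was 9.55 ± 0.06 (SD, n = 3), a difference of -0.39 ± 0.23 for Gli2R Tg minus Gli2A Tg (adjusted p = 0.43). Fam20a, a pseudokinase of the secretory pathway that is known for its role in enamel formation, was 6.77, 7.13 and 5.57 in the Gli2R Tg arrays, against 4.69, 4.51 and 4.88 in the WT arrays. Its difference was 1.80 ± 0.27 (adjusted p = 0.0654), and replicate 3 was the lowest of the Gli2R Tg arrays. The WT level lay under the 25th percentile of all genes.

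Abhd1, an alpha/beta hydrolase, was higher by 1.33 ± 0.22, with 7.70, 7.88 and 7.97 in the Gli2R Tg arrays, against 6.72, 6.22 and 6.60 in the WT arrays. Alkbh2, which repairs alkylated DNA, was 8.93, 8.61 and 9.20 in the Gli2R Tg arrays, against 7.84, 7.98 and 7.93 in the WT arrays, a difference of 0.999 ± 0.17 (adjusted p = 0.0774). The T cell genes of this group were Ctsw and Cd84. Ctsw, cathepsin W, a protease of cytotoxic lymphocytes, was 11.27, 11.56 and 11.52 in the Gli2R Tg arrays, against 9.99, 10.42 and 10.52 in the WT arrays, higher by 1.14 ± 0.22 (adjusted p = 0.103). Cd84, a homophilic receptor of the SLAM family that takes part in T cell and B cell contacts, was 11.24, 11.05 and 11.01 in the Gli2R Tg arrays, against 10.50, 10.42 and 10.37 in the WT arrays, higher by 0.67 ± 0.13. The other probe set of Cd84 had the opposite sign. The lipid flippase Atp10d was 11.37, 11.45 and 10.36 in the Gli2R Tg arrays, against 9.63, 9.95 and 9.31 in the WT arrays, higher by 1.43 ± 0.27 with replicate 3 again nearest to WT. The rest, Car6, Spef2, Gm8369, Gm3912 and 1700007L15Rik, were higher by 0.73 to 1.39.

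On the lower side, Prg2, the major basic protein of eosinophil granules, was 9.46, 8.78 and 9.34 in the Gli2R Tg arrays, against 12.91, 11.16 and 11.28 in the WT arrays. This was 6-fold lower, -2.58 ± 0.43 on the log2 scale (adjusted p = 0.0692), with WT replicate 1 far above the other WT arrays. Apoc1, an apolipoprotein, was 7.36, 7.90 and 7.92 in the Gli2R Tg arrays, against 9.47, 9.43 and 9.49 in the WT arrays, a difference of -1.74 ± 0.31. Slc25a37, mitoferrin, which imports iron into mitochondria and is known for its role in red cell precursors, was 9.07, 9.004 and 8.76 in the Gli2R Tg arrays, against 10.83, 10.05 and 11.29 in the WT arrays, lower by 3.43-fold (adjusted p = 0.1). The lowest Gli2R Tg array and the highest WT array of Slc25a37 were both replicate 3.

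The transporters Abca9 and Abcg3 had differences of -1.19 ± 0.19 and -0.997 ± 0.18. Both were also lower than in resting Gli2A Tg cells, with differences of -1.67 ± 0.19 (adjusted p = 0.000337) and -1.84 ± 0.18 (adjusted p = 6.71e-05). Spred1, an inhibitor of the Ras to MAP kinase pathway, was 7.42, 7.32 and 7.60 in the Gli2R Tg arrays, against 8.36, 8.07 and 8.001 in the WT arrays, a difference of -0.70 ± 0.13 to which 7 of its 8 probe sets gave the same sign. Lman2l, a lectin of the early secretory pathway, was 9.78, 9.49 and 9.78 in the Gli2R Tg arrays, against 11.19, 11.61 and 10.25 in the WT arrays. WT replicate 3 lay between the other WT arrays and the Gli2R Tg arrays, and the difference was -1.33 ± 0.24. Wdr38, Lmln, 1700080O16Rik and 1810053B23Rik had differences of -1.71 to -1.16 and lay below the 25th percentile of all genes in Gli2R Tg cells. The other probe sets of Wdr38 and Lmln had the opposite sign, with differences of 0.55 and 0.0052.

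**Figure D2:**
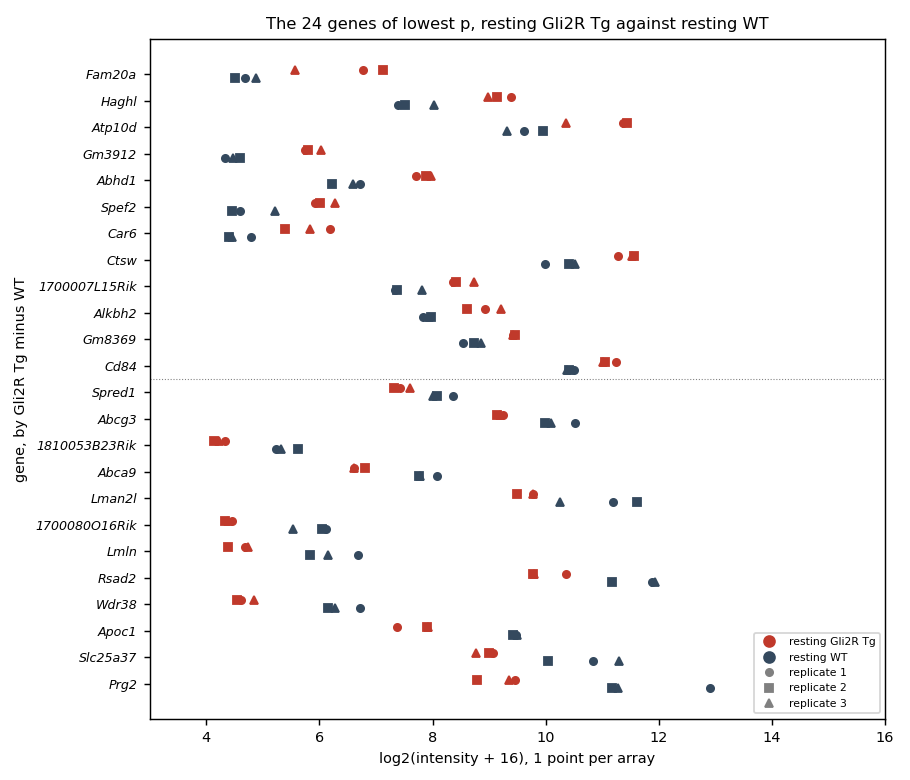
Log2 levels of the 24 genes of lowest p in the 3 resting Gli2R Tg arrays and the 3 resting WT arrays, 1 point per array and 1 row per gene, sorted by the difference. Levels are to be compared within a row, and in each of the 24 rows the groups do not overlap.

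Interferon response genes had a median difference of 0.05, beside 0.01 over all genes. Of 25 measured, 15 were higher and 10 lower, and 3 had an unadjusted p under 0.05, as did 10.3% of all genes. Without overlap, 2 were higher and 3 lower, against 8.67% and 9.16% of all genes. Rsad2, viperin, an antiviral enzyme that type I interferon strongly induces, was 10.36, 9.77 and 9.80 in the Gli2R Tg arrays, against 11.87, 11.17 and 11.93 in the WT arrays. It was 3.21-fold lower, -1.68 ± 0.30 on the log2 scale, with an adjusted p of 0.0774, and its 3 probe sets had the same sign. All Gli2R Tg arrays lay below all WT arrays. The Gli2A Tg cells were on the other side of WT, at 13.62 ± 0.77 (SD, n = 3), and the difference of Gli2R Tg from Gli2A Tg, -3.64 ± 0.30, passed the test (adjusted p = 2e-05). Isg20, an exonuclease that interferon induces, was 10.60, 10.89 and 10.79 in the Gli2R Tg arrays, against 11.20, 11.12 and 11.77 in the WT arrays, with a difference of -0.60 ± 0.27 (adjusted p = 0.45) and of -1.59 ± 0.27 against Gli2A Tg cells (adjusted p = 0.00568). Of the list, 6 genes were lower in Gli2R Tg than in Gli2A Tg cells at an adjusted p under 0.05 and none was higher, where 1.57% and 0.83% of all genes were. In resting Gli2A Tg against the same WT arrays the list had a median of 0.47 and 4 genes were higher at an adjusted p under 0.05. Cxcl10, a chemokine that interferon induces, ran the other way, higher by 0.65 ± 0.25 with overlap (adjusted p = 0.381).

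The promoter of Rsad2 is shown because it was the interferon gene of lowest p, and it holds an interferon response motif. The letters searched were GAAA, any pair of bases and GAAA again, on both strands, a search added after the data were seen. They lay in 3.44% of all promoter windows and in 12 of the 19 interferon response genes with a window. The window runs from 250 bases before the transcript's start to 50 after it, chr12:26456403-26456702 on the minus strand of GRCm38.p6 (RefSeq), with the match, on its reverse strand, in capitals. The match is a description of the sequence and not of a bound site.
Rsad2: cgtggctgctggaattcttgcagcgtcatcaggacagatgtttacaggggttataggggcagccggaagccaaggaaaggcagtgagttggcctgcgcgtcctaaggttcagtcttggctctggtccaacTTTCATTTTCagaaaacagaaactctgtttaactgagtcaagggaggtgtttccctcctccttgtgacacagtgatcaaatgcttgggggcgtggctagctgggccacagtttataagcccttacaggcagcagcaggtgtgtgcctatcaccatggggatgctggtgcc

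Heat shock genes differed in both directions. Of 14 measured, 5 were higher and 9 lower, and the median was -0.15. An unadjusted p under 0.05 was reached by 4, all of them lower, against 5.6% of all genes. Hsph1, a co-chaperone of the Hsp70 system, was 11.47, 11.42 and 11.005 in the Gli2R Tg arrays, against 12.83, 12.92 and 11.72 in the WT arrays. WT replicate 3 lay nearer to the Gli2R Tg arrays than to the other WT arrays, and the difference was -1.19 ± 0.25 (adjusted p = 0.106). Hspd1, the mitochondrial chaperonin, was lower by 1.53-fold, with 13.14, 13.29 and 13.18 in the Gli2R Tg arrays, against 13.88, 13.71 and 13.86 in the WT arrays (adjusted p = 0.339). The inducible Hsp70 genes Hspa1a and Hspa1b were higher by 0.95 ± 0.55 and 0.53 ± 0.44 with overlap, and WT replicate 3 had the lowest level of both. Against resting Gli2A Tg cells they were higher by 3.99 ± 0.55 (adjusted p = 0.00182) and 4.59 ± 0.44 (adjusted p = 6.71e-05). The heat shock motif searched after the data were seen, GAA, TTC and GAA with any pair of bases between neighbours, on both strands, lay in 0.603% of all promoter windows and in 3 of the 11 heat shock genes with a window, Hspd1, Hspe1 and Hsph1. The window of Hsph1, chr5:149636287-149636586 on the minus strand of GRCm38.p6 (RefSeq), is shown as that of the heat shock gene of lowest p, with the match in capitals. It lies after the transcript's start, at bases 287 to 299 of the 300.
Hsph1: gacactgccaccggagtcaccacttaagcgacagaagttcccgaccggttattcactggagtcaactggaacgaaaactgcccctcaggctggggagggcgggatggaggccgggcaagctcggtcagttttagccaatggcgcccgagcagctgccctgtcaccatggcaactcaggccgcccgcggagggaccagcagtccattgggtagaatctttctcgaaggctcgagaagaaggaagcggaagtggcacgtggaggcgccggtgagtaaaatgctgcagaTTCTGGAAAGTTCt

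T cell activation genes were mostly higher in the Gli2R Tg arrays. Of 20 activation markers, 19 were higher and 1 lower, and the median was 0.55 against 0.01 over all genes. Without overlap, 5 were higher, against 8.67% of all genes. At an unadjusted p under 0.05, 11 were higher, against 4.68% of all genes. With single arrays left out this count ran from 7 to 13, and the median was 0.85 without Gli2R Tg replicate 3. With the erythroid level of each array as a covariate the median was 0.28. Some genes stand on several of the lists described here, such as Pdcd1, Ctla4 and Ifng, so the lists are not independent of each other. The mean log2 level of the list was 8.70 to 9.26 in the Gli2R Tg arrays and 8.23 to 8.43 in the WT arrays. Summed deposited intensities were 19989 to 32326 in the Gli2R Tg arrays and 19497 to 20277 in the WT arrays, an overlap that replicate 3 of the Gli2R Tg arrays made. The same list had a median of 0.02 in resting Gli2A Tg against WT cells, which share the WT arrays, and of -0.45 in stimulated Gli2R Tg against stimulated WT cells.

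The chemokine Ccl3, which activated T cells secrete, was 6.50, 8.33 and 6.23 in the Gli2R Tg arrays, against 6.05, 4.26 and 4.21 in the WT arrays. Its difference was 2.18 ± 0.53 (adjusted p = 0.177), without overlap and at low levels in WT. Ifng, the cytokine of Th1 cells, was 9.72, 9.77 and 8.56 in the Gli2R Tg arrays, against 8.87, 8.27 and 6.98 in the WT arrays, higher by 1.31 ± 0.47 with overlap (adjusted p = 0.348). Against resting Gli2A Tg cells Ifng was higher by 2.74 ± 0.47 (adjusted p = 0.00685). Tnf was higher by 1.07 ± 0.30 without overlap, with 8.15, 8.51 and 7.75 in the Gli2R Tg arrays, against 7.55, 6.93 and 6.72 in the WT arrays, and passed the test against Gli2A Tg cells (difference 1.35, adjusted p = 0.0264). The growth factor Csf2 was higher by 1.14 ± 0.37 without overlap, and the early activation receptor Cd69 by 0.73 ± 0.33 with overlap. Cd44, which is high on memory T cells, was 12.70, 12.73 and 12.43 in the Gli2R Tg arrays, against 12.76, 12.48 and 12.83 in the WT arrays, with overlap and a difference of -0.07 ± 0.17.

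Of 20 antigen receptor response factors, transcription factors of the first hours after a T cell receptor signal, 16 were higher with a median of 0.33, and 2 had an unadjusted p under 0.05, as did 10.3% of all genes. Jun was 13.64, 13.97 and 12.70 in the Gli2R Tg arrays, against 13.47, 12.49 and 10.41 in the WT arrays. The WT arrays spanned over 3 on the log2 scale and the groups overlapped, so the difference of 1.32 ± 0.71 was smaller than their spread. Fosb was higher by 1.25 ± 0.33 (adjusted p = 0.208). The direction of this list turned with 1 alternative, a covariate for the erythroid level of each array, in which its median was -0.19. It was 0.12 without Gli2R Tg replicate 1, 0.17 without WT replicate 3 and 0.18 without Gli2R Tg replicate 2.

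Genes of follicular helper T cells, which help B cells in germinal centres, divided the Gli2R Tg arrays themselves. Of 10 measured Th17 and follicular helper genes, 8 were higher with a median of 0.45. At an unadjusted p under 0.05, 5 were higher, against 4.68% of all genes. Without Gli2R Tg replicate 3 the median was 0.74. Ascl2, a transcription factor of follicular helper cells, was 8.26, 8.54 and 5.83 in the Gli2R Tg arrays, against 4.92, 4.97 and 5.69 in the WT arrays. Il21, their main cytokine, was 9.49, 9.71 and 6.41 in the Gli2R Tg arrays, against 6.09, 6.70 and 6.16 in the WT arrays. The inhibitory receptor Pdcd1 was 10.10, 10.53 and 8.85 in the Gli2R Tg arrays, against 8.47, 8.87 and 8.80 in the WT arrays. In each of these genes replicates 1 and 2 of the Gli2R Tg arrays were far above WT, and replicate 3 lay just above the highest WT array in Ascl2 and inside the WT range in Il21 and Pdcd1. The chemokine receptor Cxcr5, which guides T cells into B cell follicles, had the same order, 10.59, 10.70 and 9.18 in the Gli2R Tg arrays, against 8.89, 9.74 and 9.47 in the WT arrays. With all 3 arrays the differences were 2.35 ± 0.55 for Ascl2, 2.22 ± 0.66 for Il21 and 1.11 ± 0.31 for Pdcd1, with adjusted p-values of 0.155, 0.248 and 0.221.

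Leaving out Gli2R Tg replicate 3, the array set apart on the second component, gave 34 called genes, 30 higher and 4 lower. Of the list genes, Ascl2 was then higher by 3.20 ± 0.36 (adjusted p = 0.00342), Il21 by 3.28 ± 0.41 (adjusted p = 0.00513) and Pdcd1 by 1.60 ± 0.19 (adjusted p = 0.00444). Il10, an anti-inflammatory cytokine, was 8.64, 8.63 and 6.71 in the Gli2R Tg arrays, against 6.48, 6.45 and 6.65 in the WT arrays, and was higher by 2.11 ± 0.32 without replicate 3 (adjusted p = 0.0214). Ctla4 and Icos, an inhibitory and a stimulatory receptor of the CD28 family, were then higher by 1.47 ± 0.24 and 1.03 ± 0.17 (adjusted p = 0.0254 and 0.0282). The gene of lowest p without replicate 3 was Tox2, a factor that promotes follicular helper differentiation, with 11.50, 11.66 and 8.46 in the Gli2R Tg arrays, against 8.80, 9.10 and 8.67 in the WT arrays. The left-out array lay inside the range of the 3 WT arrays in 12 of the 34 genes. In this setting 12 genes also differed between the resting and the stimulated effect of Gli2R, where none did with all arrays. These values come from 2 Gli2R Tg arrays and describe those arrays. Whether the number of follicular helper cells or the RNA per cell differed between the preparations cannot be told apart in bulk RNA, here or in any list below.

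**Figure D3:**
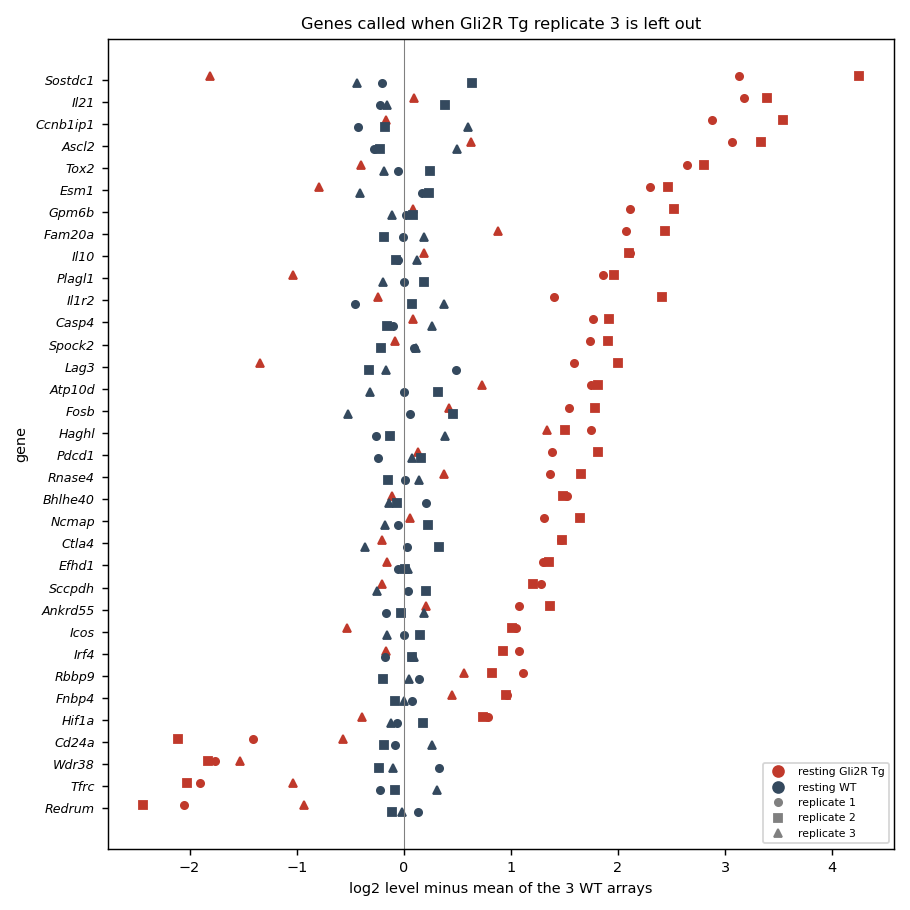
The 34 genes called when resting Gli2R Tg replicate 3 is left out, each array as its log2 level minus the mean of the 3 WT arrays, 1 row per gene. Replicates 1 and 2 of Gli2R Tg lie together away from WT, while replicate 3 lies inside the WT range in 12 genes, Il21 and Pdcd1 among them.

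Genes of other helper lineages were mostly on the higher side. Of 12 Th1 genes, 9 were higher with a median of 0.41. At an unadjusted p under 0.05, 5 were higher and 1 lower, against 4.68% and 5.6% of all genes. The count of 5 was 3 or 4 with single arrays left out. The chemokine receptor Cxcr3 was 12.76, 12.79 and 12.53 in the Gli2R Tg arrays, against 11.63, 11.99 and 11.95 in the WT arrays, higher by 0.84 ± 0.22 without overlap (adjusted p = 0.209). Tbx21, the defining Th1 factor, was higher by 0.54 ± 0.25 without overlap (adjusted p = 0.486), and Hlx, a homeobox factor that acts with it, was lower by 1.69-fold with overlap. Of 13 Th2 genes, 10 were higher with a median of 0.15, which was 0.05 without Gli2R Tg replicate 1 and 0.28 without WT replicate 1. Gata3, the defining Th2 factor, differed by 0.22 ± 0.21 with overlap, and Il4 by 0.70 ± 0.37 without overlap. Il4 was 7.26, 8.04 and 7.56 in the Gli2R Tg arrays, against 6.60, 7.09 and 7.06 in the WT arrays. Of 13 regulatory T cell genes, 11 were higher with a median of 0.42. At an unadjusted p under 0.05, 4 were higher, against 4.68% of all genes. Without Gli2R Tg replicate 3 the median was 0.78 and the count 10, and without Gli2R Tg replicate 2 they were 0.21 and 3. Foxp3, their defining factor, was 9.56, 9.54 and 8.74 in the Gli2R Tg arrays, against 9.01, 8.85 and 8.76 in the WT arrays, with overlap and a difference of 0.41 ± 0.28. The receptors Tnfrsf18 and Tnfrsf4 were higher by 0.57 ± 0.18 and 0.80 ± 0.24. The median of the regulatory T cell list was -0.07 with the erythroid level as a covariate and -0.0018 with the neutrophil level.

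Of 18 effector and memory genes, 16 were higher with a median of 0.26. At an unadjusted p under 0.05, 4 were higher, against 4.68% of all genes. Without Gli2R Tg replicate 3 the median was 0.44 and the count 8, and with the erythroid level as a covariate the median was 0.06. Il2rb, a chain of the IL-2 and IL-15 receptors, was 11.63, 11.35 and 11.45 in the Gli2R Tg arrays, against 10.86, 10.78 and 10.85 in the WT arrays, higher by 0.65 ± 0.20 without overlap (adjusted p = 0.259). Klrg1, a receptor of effector cells, was 8.87, 8.90 and 8.997 in the Gli2R Tg arrays, against 8.20, 8.36 and 8.42 in the WT arrays, higher by 0.59 ± 0.19. Among 12 markers of CD8 T and NK cells, 7 were higher and 5 lower. The median was 0.15, and 0.02 without Gli2R Tg replicate 3. At an unadjusted p under 0.05, 4 were higher, against 4.68% of all genes, and 2 to 5 with single arrays left out. Gzmk, a granzyme, was 10.36, 10.58 and 9.41 in the Gli2R Tg arrays, against 8.42, 8.43 and 8.74 in the WT arrays, higher by 1.59 ± 0.36 without overlap (adjusted p = 0.136). The chemokine Ccl5 was 12.87, 13.37 and 13.30 in the Gli2R Tg arrays, against 12.43, 12.26 and 12.59 in the WT arrays, higher by 0.75 ± 0.23. The summed intensity of this marker list was 15971 to 21205 in Gli2R Tg arrays and 12537 to 13738 in WT arrays, and its part in the effector genes was not tested.

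Naive and quiescence genes, T cell receptor signalling genes and CD4 T cell identity genes had medians of 0.09, 0.16 and 0.25. These were not stable in sign, at -0.047, -0.063 and -0.033 with the erythroid level as a covariate and at -0.034, -0.0055 and -0.017 with the neutrophil level. Klf2, which keeps T cells quiescent and in circulation, was 13.71, 13.74 and 13.56 in the Gli2R Tg arrays, against 13.31, 12.88 and 12.70 in the WT arrays, higher by 0.71 ± 0.21 without overlap (adjusted p = 0.246), and by 1.08 ± 0.21 against Gli2A Tg cells (adjusted p = 0.014). Dapl1, a marker of naive T cells, was 11.31, 11.40 and 11.57 in the Gli2R Tg arrays, against 11.77, 12.08 and 11.97 in the WT arrays. Its difference from WT was -0.52 ± 0.27, and it was higher by 2.94 ± 0.27 than in Gli2A Tg cells (adjusted p = 6.71e-05), where its mean was 8.48 ± 0.55 (SD, n = 3). Ccr7 and Il7r, a homing and a survival receptor of naive cells, differed from WT by 0.22 ± 0.22 and 0.20 ± 0.13. Of 14 CD4 T cell identity genes, 12 were higher, none had an unadjusted p under 0.05, and their summed intensity was 132959 to 140902 in Gli2R Tg arrays and 109597 to 129944 in WT arrays.

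The medians of other signalling pathways were 0.15 for 19 TGF-beta genes, 0.10 for 17 Notch genes and -0.06 for 19 Wnt genes, and each took the opposite sign in at least 1 alternative. Pmepa1, an inhibitor of TGF-beta signalling, was 8.53, 8.30 and 7.76 in the Gli2R Tg arrays, against 7.35, 7.90 and 7.96 in the WT arrays, with overlap and a difference of 0.46 ± 0.21. Against Gli2A Tg cells, where its mean was 10.78 ± 0.28 (SD, n = 3), it was lower, with a difference of -2.58 ± 0.21 (adjusted p = 2e-05). Fzd7, a Wnt receptor, had the lowest p of these pathways. It was 6.61, 6.85 and 7.20 in the Gli2R Tg arrays, against 7.89, 7.75 and 8.19 in the WT arrays, with a difference of -1.06 ± 0.21 and no overlap (adjusted p = 0.104), and it was also lower than in Gli2A Tg cells (-1.11, adjusted p = 0.0139). Nrarp, a Notch target that feeds back on the pathway, differed by -0.58 ± 0.23 without overlap. Glycolysis, oxidative phosphorylation, ribosome biogenesis and sterol synthesis lists had medians between -0.08 and 0.07, and 1 of their genes, Ndufb8 of the respiratory chain, had an unadjusted p under 0.05.

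Cell cycle genes were lower in the Gli2R Tg arrays. All 23 measured were lower, with a median of -1.01. Without overlap, 20 were lower, against 9.16% of all genes. An unadjusted p under 0.05 was reached by 19, all lower, against 5.6% of all genes. With single arrays left out, 13 to 19 had such a p and all 23 remained lower. Rrm2, a subunit of the enzyme that makes deoxyribonucleotides, was 11.26, 10.70 and 11.49 in the Gli2R Tg arrays, against 12.56, 12.55 and 13.04 in the WT arrays. It was 2.96-fold lower, -1.56 ± 0.37 on the log2 scale (adjusted p = 0.161), and was also lower than in Gli2A Tg cells (-1.58, adjusted p = 0.037). Bub1, a kinase of the spindle checkpoint, was 8.14, 8.29 and 8.17 in the Gli2R Tg arrays, against 9.55, 9.57 and 9.69 in the WT arrays, a difference of -1.40 ± 0.41 without overlap. Birc5, survivin, and Ccne2, cyclin E2, differed by -1.23 ± 0.35 and -1.22 ± 0.38.

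Markers of red cell precursors were lower as well. Of 15 erythroid markers, 13 were lower and 2 higher, with a median of -1.73. At an unadjusted p under 0.05, 11 were lower, against 5.6% of all genes. Without overlap, 12 were lower, against 9.16% of all genes. Slc4a1, the anion exchanger of red cells, was 9.75, 7.88 and 9.91 in the Gli2R Tg arrays, against 11.47, 11.86 and 12.47 in the WT arrays. Alas2, which makes heme in red cell precursors, was 10.72, 8.44 and 9.36 in the Gli2R Tg arrays, against 12.05, 11.38 and 12.12 in the WT arrays. Replicate 2 was the lowest Gli2R Tg array for both genes. Their differences were -2.75 ± 0.86 and -2.34 ± 0.59, with adjusted p-values of 0.271 and 0.202, and Alas2 was lower than in Gli2A Tg cells, with a difference of -4.18 ± 0.59 (adjusted p = 0.00194). The summed intensity of the list was 20893 to 41307 in Gli2R Tg arrays and 62456 to 84688 in WT arrays. With the mean erythroid level of each array as a covariate, an alternative added after the data were seen, the cell cycle median was -0.10, against -1.01 without it. With the neutrophil level as a covariate it was -0.54, and the erythroid median was -0.995. With arrays of high Xist alone, which leaves 1 WT array, the cell cycle median was -1.32.

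Granulocyte and macrophage markers were lower too. Of 14 neutrophil markers, 13 were lower with a median of -1.20, and 7 of these and the 1 higher gene had an unadjusted p under 0.05. Over all genes, 5.6% were lower and 4.68% higher at such a p. The count of 7 was 2 without WT replicate 1, 4 without Gli2R Tg replicate 2 and 10 without WT replicate 2. S100a8, a calcium-binding protein of neutrophils, was 7.65, 9.03 and 8.13 in the Gli2R Tg arrays, against 11.51, 10.32 and 9.81 in the WT arrays, a difference of -2.28 ± 0.59 (adjusted p = 0.208). WT replicate 1 was the highest array for S100a8, for the granule enzymes Mpo and Prtn3, and for Prg2 and Epx. Epx, eosinophil peroxidase, was 6.31, 5.93 and 5.85 in the Gli2R Tg arrays, against 9.41, 7.84 and 7.62 in the WT arrays, lower by 4.79-fold (adjusted p = 0.104). Without WT replicate 1 the neutrophil median was -0.73, with the erythroid level as a covariate -0.46, and with high-Xist arrays alone -0.77. The summed intensity of neutrophil markers was 2849 to 3928 in Gli2R Tg arrays and 5773 to 20593 in WT arrays. That of basophil, mast cell and eosinophil markers was 1610 to 2012 in Gli2R Tg arrays and 3948 to 10029 in WT arrays. Of the 10 measured genes of this last list, 2 were higher and 8 lower, with a median of -0.70. This median was -0.16 with high-Xist arrays alone and -1.04 with the erythroid level as a covariate. Of 21 monocyte and macrophage markers, 20 were lower with a median of -0.49. At an unadjusted p under 0.05, 4 were lower, against 5.6% of all genes. Without WT replicate 1 the median was -0.29 and 1 gene had such a p, 2 had it without Gli2R Tg replicate 2 or 3, and the median was -0.11 with the neutrophil level as a covariate, -0.74 with the erythroid level and -0.32 with high-Xist arrays alone. Their summed intensity was 73121 to 91459 in Gli2R Tg arrays and 95329 to 143911 in WT arrays. Cd14, a monocyte receptor, was 9.61, 9.01 and 9.52 in the Gli2R Tg arrays, against 11.09, 10.78 and 9.92 in the WT arrays, lower by 2.33-fold (adjusted p = 0.297).

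B cell and plasma cell markers had medians of 0.11 and 0.16, with no gene at an unadjusted p under 0.05. Both medians depended on the setting, at -0.14 to 0.53 for B cells and -0.09 to 0.52 for plasma cells over the 23 alternatives. Of 10 class II antigen presentation genes, 8 were higher with a median of 0.47, which was 0.23 without WT replicate 2 and 0.07 with high-Xist arrays alone. H2-Ob, a chain of the H2-O molecule of B cells, was 10.02, 9.69 and 9.97 in the Gli2R Tg arrays, against 8.81, 8.79 and 9.20 in the WT arrays, higher by 0.96 ± 0.29 without overlap (adjusted p = 0.248). The summed intensity of B cell markers, 4026 to 5937 in Gli2R Tg arrays and 4439 to 6846 in WT arrays, overlapped between the groups. Pancreatic acinar markers, from a tissue next to the spleen, were higher in all 18 measured genes with a median of 2.20, none without overlap. At an unadjusted p under 0.05, 4 were higher, against 4.68% of all genes. The count of 4 ran from 0 to 17 with single arrays left out. The pancreatic markers were high in 2 of the Gli2R Tg arrays. Cpb1, a pancreatic carboxypeptidase, was 12.03, 5.78 and 12.89 in the Gli2R Tg arrays, against 8.47, 7.83 and 6.39 in the WT arrays, so replicate 2 had the lowest level of the 6 arrays. The median of this list was 1.46 without Gli2R Tg replicate 1, 4.18 without replicate 2, where 17 of the 18 genes had an unadjusted p under 0.05, and 0.97 without replicate 3, where none had. The part of these other cell types in the differences of the T cell genes was not tested beyond the covariates named.

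**Figure D4:**
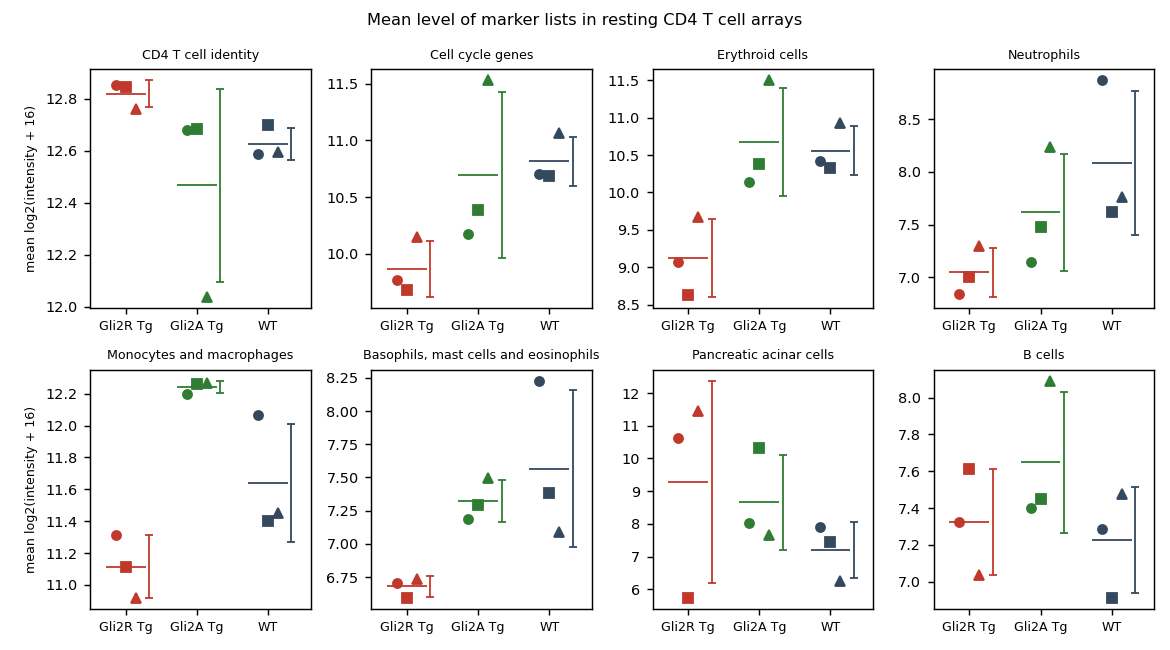
Mean log2 level of 8 gene lists in each resting array, with the mean as a line and the SD as a bar for Gli2R Tg, Gli2A Tg and WT. Cell cycle, erythroid, neutrophil, macrophage and basophil lists are lower in every Gli2R Tg array than in every WT array, the B cell list overlaps, and the pancreatic list is high in Gli2R Tg replicates 1 and 3.

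**Figure D5:**
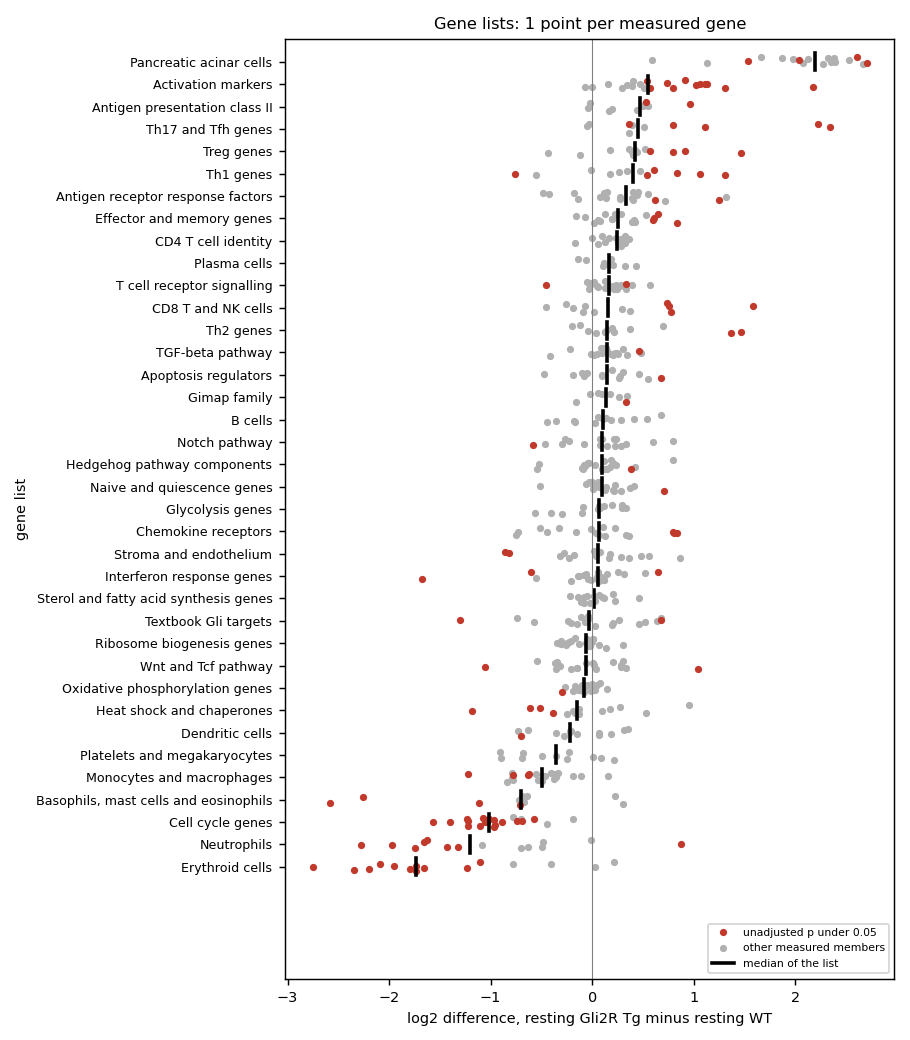
Log2 difference of resting Gli2R Tg minus resting WT for each measured gene of the lists other than the sex-linked one, with the median of a list as a bar and genes at an unadjusted p under 0.05 in red. Erythroid, neutrophil and cell cycle lists have medians of -1.73, -1.20 and -1.01, activation markers 0.55, and the Hedgehog and Gli target lists 0.10 and -0.03.

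The resting difference was then set against the difference after stimulation, which uses none of the same arrays. The sex patterns were not balanced between them. At rest, Xist was high in 3 of 3 Gli2R Tg and 1 of 3 WT arrays. After stimulation it was high in 1 of 3 Gli2R Tg and 2 of 3 WT arrays. The part of sex in this comparison was not tested. No gene differed between the resting and the stimulated effect of Gli2R at an adjusted p under 0.05 in limma (0%), the lowest adjusted p was 0.133, and 1574 genes (8.65%) had an unadjusted p under 0.05. After stimulation the difference from WT of largest size among the 24 lowest-p genes was -0.68, in Ctsw. Haghl differed by -0.54 ± 0.23 there and by 1.53 ± 0.23 at rest, a difference of effects of 2.07 ± 0.32 (adjusted p = 0.133). Ctsw gave -0.68 after stimulation and 1.14 at rest (adjusted p = 0.133). Il21 gave -1.20 and 2.22 (adjusted p = 0.296). Cell cycle genes had a median of -0.40 after stimulation and erythroid markers one of -0.62, beside -1.01 and -1.73 at rest.

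Against resting cells with the activator, 436 genes differed (2.4%), 151 higher (0.83%) and 285 lower (1.57%) in Gli2R Tg cells. Marker lists differed here as well, with medians of -1.14 for monocytes and macrophages and -1.48 for erythroid cells. The CD4 T cell identity and pancreatic lists had medians of 0.37 and 0.52. The part of the cell types present in these 436 genes was not tested. The effects of both transgenes were each taken against the same WT arrays and are given side by side only. Ptch1 differed from WT by 0.02 in Gli2R Tg and by 3.11 in Gli2A Tg cells, Pmepa1 by 0.46 and 3.04, and Dapl1 by -0.52 and -3.46. Rsad2 differed by -1.68 and 1.96. Of these genes, Ptch1, Pmepa1 and Dapl1 were within 0.52 of WT in Gli2R Tg cells and more than 3 away from WT in Gli2A Tg cells.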

How the data were processed

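Expression was measured on 18 Affymetrix arrays of splenic mouse CD4 T cells. The authors deposited linear intensity values for 45101 probe sets, scaled so that the 2% trimmed mean of each array is 500. The affy package is named, without a version, per the submitters' processing notes, and the summary method and background correction are not given in the sources used here. Both a Stratagene kit and Trizol are named for the RNA, per the labels' protocols.

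From the deposited intensity, log2(value + 16) was taken and quantile normalized. Of the probe sets, 34945 had 1 gene symbol, 932 several and 9160 none, and 64 were controls. The brightest probe set with 1 symbol stood for each of 18193 genes. limma 3.58.1 (R 4.3.3) was fitted with lmFit and eBayes to all 18 arrays in 6 groups, so that all groups share 1 estimate of the spread, and p-values were adjusted by Benjamini-Hochberg over all genes, with a gene called at an adjusted p under 0.05. With arrays, the number of samples limits the precision. The scripts were tested on simulated data.

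The text names the Hedgehog and Gli target genes, the 12 genes of lowest p in each direction, up to 4 genes of largest difference in each of 38 lists (564 of 626 genes measured), and 10 fixed T cell genes. Other genes, such as those called without 1 array, were chosen after their values were seen. The members and lists were chosen with earlier results of these data known. Lists were described by counts and medians, with no test. Replicate numbers are shared between groups in the labels. Deviations of same-numbered arrays correlated at 0.09, 0.02 and 0.10, and those of differently numbered arrays at -0.11 to 0.02. All of these were small, so the numbers were not taken to pair the samples. The alternatives changed the scaling, the added constant, the filter, the probe set rule, the fit, covariates and the arrays included.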

Additional observations from a re-analysis of the deposited data

How the results depend on the processing

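The count of genes called between resting Gli2R Tg and resting WT cells, 0 with an adjusted p of at least 0.0654, depended on the setting. It was 6 with median centring, 1 with the deposited scaling alone, 48 among genes above the median level, 2 with log2 of the value plus 1, 16 with log2 of the value plus 64, 46 with the trend and robust options, 212 with array weights, 7 over all probe sets, and 1 each with the macrophage or the pancreatic level as a covariate. It was 0 with probe sets averaged per gene, the 6 arrays alone, the Y-linked, erythroid or neutrophil level as a covariate, and high-Xist arrays alone. With the replicate number as a block it was 28, although the numbers were not taken to pair the samples. Single arrays left out gave 0 to 34, with 34 without Gli2R Tg replicate 3 and 14 without WT replicate 3. For the difference between the resting and the stimulated effect the range was 0 to 12, and 1 gene was called among genes above the median level. Against resting Gli2A Tg cells the range was 154 to 409, and 1007 genes were called among genes above the median level. Of the named genes with an unadjusted p under 0.05, 4 of 90 turned their sign in an alternative, Sos1 with its probe sets averaged (0.13), Hemgn with the erythroid covariate (0.024), and Pdgfra (0.021) and Kdm5d (0.65) with high-Xist arrays alone. Of the other named genes, 53 of 115 did so in at least 1 alternative, among them Ptch1 (-0.17 to 0.09), Foxp3 (-0.27 to 0.67) and Cd4 (-0.20 to 0.35). The median of the Hedgehog components ran from -0.035 to 0.17, of the Gli targets from -0.11 to 0.19 and of the interferon list from -0.07 to 0.11, so none has a settled sign. The cause of these shifts was not tested, except that fewer genes are tested above the median level. Differences at levels near or below the 25th percentile of all genes are to be read with caution, and reliability by level was not tested.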

Other observations

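Further genes divided the Gli2R Tg arrays in the same way as the follicular helper genes, and were chosen after their values were seen. Sostdc1, a secreted antagonist of BMP and Wnt signals, was 10.06, 11.18 and 5.12 in the Gli2R Tg arrays, against 6.73, 7.57 and 6.49 in the WT arrays. Lag3, an inhibitory receptor that binds class II molecules, was 9.07, 9.48 and 6.14 in the Gli2R Tg arrays, against 7.97, 7.15 and 7.32 in the WT arrays. In both genes replicates 1 and 2 of Gli2R Tg were above all WT arrays and replicate 3 was below all of them. Without replicate 3 the differences were 3.69 ± 0.58 and 1.80 ± 0.24, with limma adjusted p-values of 0.0219 and 0.00655. Hif1a, the oxygen-regulated transcription factor, had the same order, with 13.45, 13.40 and 12.27 in the Gli2R Tg arrays, against 12.60, 12.84 and 12.54 in the WT arrays. Tfrc, the transferrin receptor and a member of the erythroid list, did not divide the arrays in this way. It was lower in all 3 Gli2R Tg arrays, with 10.65, 10.53 and 11.52, against 12.33, 12.47 and 12.86 in the WT arrays. Its difference without replicate 3 was -1.96 ± 0.32 (limma, adjusted p = 0.0235).

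WT replicate 3 stood apart from the other WT arrays in a different set of genes. Cirbp, an RNA-binding protein that cold induces, was 11.26, 11.22 and 11.21 in the Gli2R Tg arrays, against 9.23, 8.94 and 10.21 in the WT arrays. Without WT replicate 3 its difference was 2.14 ± 0.34 (limma, adjusted p = 0.0418). Hsph1 was lower in all 3 Gli2R Tg arrays, and without WT replicate 3 its difference was -1.57 ± 0.16 (adjusted p = 0.00191). WT replicate 3 was also the only resting WT array with high Xist. Without it, Gli2R Tg arrays of female pattern stand against resting WT arrays of male pattern alone. Sex and genotype therefore cannot be told apart in the values without WT replicate 3.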
